A study of Drosophila melanogaster with 9 samples.

Results

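Heads of female flies heterozygous for Ime4 were compared with heads of control flies in 6 of the 9 RNA-seq libraries of the study, 3 libraries of each genotype. Ime4, listed in current annotation as Mettl3, is the enzyme of the protein complex that places the mark N6-methyladenosine (m6A) on messenger RNA. The modified base is read in the nucleus by YT521-B, listed as Ythdc1, and in Drosophila melanogaster the pathway is known for its part in neuronal development and in the splicing of Sxl, the master gene of female sex determination. A heterozygous fly keeps 1 intact copy of the gene, and the comparison asks which transcripts of the head differ from control at that dose.

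All flies were adults 1 to 2 days old, raised at 25 °C and 60% humidity. The heterozygous group is labelled by that genotype alone, with no allele name, and the control group is labelled wt with no further genotype, so differences of the genetic background between the groups cannot be told apart from differences at Ime4. A group of 3 libraries homozygous for Ime4 makes up the rest of the study, and its levels are set beside some genes as a description. RNA was polyadenylated RNA from whole heads, which hold brain, eyes, fat body, muscle and cuticle, so in these bulk samples fewer cells of a type and less RNA per cell cannot be told apart.

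The control libraries held 2730289 to 3449227 reads in genes and the heterozygous libraries 3420013 to 3684110. Levels are given per library, always in the order of replicates 1, 2 and 3, as counts scaled to library size (CPM). Reads outside annotated genes made up 26.2 to 31.7% of control and 19.1 to 28.4% of heterozygous libraries. The labels of the tissue held against its markers: photoreceptor, neuronal and glial markers were present in all 6 libraries, and 4 of 6 markers of the male germline and accessory gland had no read in any of them. Control replicate 3 stood apart in ovary transcripts, with a summed level of 427 CPM over 26 ovary and eggshell genes against 23.4 and 30.1 in the other controls and 19.1 to 21.3 in the heterozygous libraries. Only 1 of those 26 genes had enough reads in enough libraries to be tested, and 12 of them were called lower when no filter on low counts was used.

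Heterozygous heads differed from control heads at many genes, most of them by less than 2-fold. Of 8614 genes tested, 1370 (15.9%) were called, that is, had an adjusted p under 0.05 in edgeR's quasi-likelihood test, with 773 (8.97%) higher and 597 (6.93%) lower in heterozygous heads. Without control replicate 3 the count was 1344, of which 1114 were called the same way with all 6 libraries (81.3% of the 1370). The called genes had a median absolute log2 fold change of 0.65, and 198 of those that rose and 146 of those that fell differed at least 2-fold. The median over all genes tested was -0.01 on the log2 scale. Heterozygous and control libraries lay fully apart, without overlap, for 2767 genes (32.1%), 1416 (16.4%) higher and 1351 (15.7%) lower. The division by direction depended on the scaling: with library sizes alone 584 genes rose and 873 fell, 40.1% higher among the called against 56.4% with TMM factors.

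**Figure D1:**
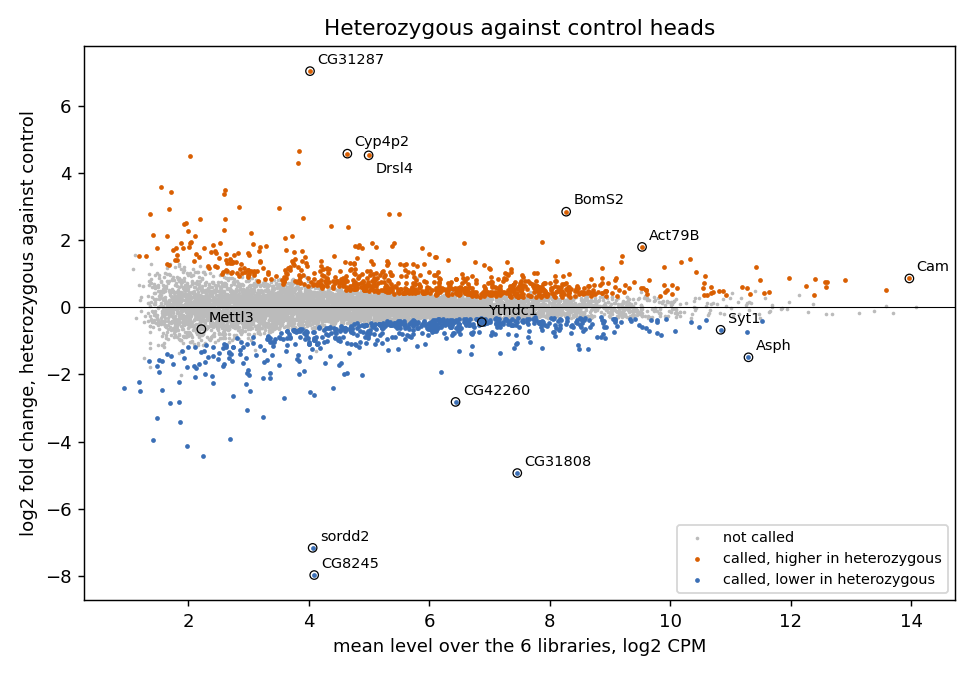
Each point is a gene tested, with its mean level over the 6 libraries (log2 CPM) on the horizontal axis and its log2 fold change, heterozygous against control, on the vertical axis. Orange points were called higher and blue points called lower, and CG8245 at -7.98 and CG31287 at 7.04 mark the ends of the scale.

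The targeted gene was lower in each heterozygous library than in each control library, but the difference did not pass the test. Mettl3 (FBgn0039139, 3R 24032157-24034257) had 17, 19 and 18 reads in the control libraries. The heterozygous libraries held 8, 13 and 16 reads of it, and the homozygous ones 3, 3 and 2. Scaled, the levels were 6.33, 5.40 and 5.28 CPM in control and 2.25, 3.65 and 4.91 CPM in heterozygous libraries. Every heterozygous library lay below every control library, and heterozygous replicate 3 came close to control replicate 3. The log2 fold change was -0.65 ± 0.37 (SE, n = 3 against 3; edgeR adjusted p = 0.263), and it ranged from -0.93 to -0.40 when single libraries were left out. Which part of the gene the allele changes is not given in the labels.

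Among the other writers and readers of m6A, the nuclear reader alone was called. Ythdc1 (3L 3370451-3374170) had 125, 130 and 148 CPM in control and 104, 104 and 88.9 CPM in heterozygous libraries, a fall of 0.44 ± 0.11 on the log2 scale (edgeR adjusted p = 0.0104). The groups did not overlap, and the homozygous libraries were lower again, at 64.2, 56.5 and 62.5 CPM. Without heterozygous replicate 3 the value was -0.37 and the call was lost (edgeR adjusted p = 0.0744). Mettl14, the partner that binds the catalytic subunit, stood at -0.08 ± 0.29, and the scaffold subunits fl(2)d and vir stood at -0.03 ± 0.10 and 0.58 ± 0.28. nito stood at -0.21 ± 0.14, Flacc at 0.13 ± 0.11, Hakai at 0.24 ± 0.48 and the cytoplasmic reader Ythdf at -0.26 ± 0.12. In all, 1 of the 9 genes was called (11.1%, against 15.9% of all genes), and their median log2 fold change was -0.08.

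The steepest falls were of single genes whose transcripts were nearly lost. CG31808 (2L 16704286-16716195) had 338, 321 and 364 CPM in control libraries and 11.0, 10.7 and 11.7 CPM in heterozygous libraries, with a log2 fold change of -4.94 ± 0.13 (edgeR adjusted p = 1.27e-14). The 3 heterozygous libraries agreed closely, and the homozygous libraries lay slightly below them, between 9.73 and 10.3 CPM, a difference that was not tested. The control libraries held 101, 110 and 111 reads of CG8245 (2R 5668383-5669986), and the heterozygous libraries 1, 0 and 0, which is 348 times fewer (95% counting interval 62.0 to 13788). For sordd2 (X 15796908-15799162) the reads were 93, 100 and 124 in control against 1, 1 and 0, which is 171 times fewer (interval 47.0 to 1421). CG16898 fell from 48 reads in all 3 control libraries together to 3, which is 17.3 times fewer (interval 5.57 to 86.8). In the homozygous libraries CG8245 had 0, 0 and 1 reads and sordd2 had none, so for these genes and CG31808 the heterozygous levels lay at or near the homozygous ones.

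Other genes that fell steeply came from several families. Osi2, of the Osiris family, had a log2 fold change of -4.44 ± 0.55, fiz, an oxidoreductase gene, of -4.12 ± 0.62 and the zinc transporter gene ZnT33D of -3.43 ± 0.58. Ir76a, an ionotropic receptor gene of the antenna, had 22.4, 16.8 and 12.3 CPM in control and 1.12, 2.81 and 1.23 CPM in heterozygous libraries, a log2 fold change of -3.27 ± 0.37 (edgeR adjusted p = 6.70e-06). The noncoding RNA genes lncRNA:CR32385 and lncRNA:CR44043 fell, at -3.92 ± 0.42 and -3.31 ± 0.59. Without heterozygous replicate 2 fiz stood at -5.32 and lncRNA:CR44043 at -3.96. Jhbp5 fell by 3.07 ± 0.40, but its exons overlap those of Jhbp4, and whether counting used strand is not known. Cyp6d2, a cytochrome P450 gene, completed the 12 lowest at -2.85 ± 0.48. The noncoding RNAs CR44383 and lncRNA:CR45997 had 20 control reads each and 0 heterozygous reads, which with 3 reads taken as the floor of the group is at least 7.21-fold lower.

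Genes with near absence in control and clear levels in heterozygous heads formed the opposite end. CG31287 (3R 16203371-16204961) had 1, 1 and 0 reads in control and 118, 122 and 95 in heterozygous libraries, 155 times more (interval 42.6 to 1285). In the homozygous libraries it had 2, 2 and 5 reads, a difference from the heterozygous libraries that was not tested here. Its exons overlap those of mtSSB, which was not called (-0.62 ± 0.44, edgeR adjusted p = 0.390). Drsl4, a drosomycin-like peptide gene, had 2.98, 3.41 and 1.47 CPM in control and 53.1, 56.4 and 73.3 CPM in heterozygous libraries (4.53 ± 0.25, edgeR adjusted p = 8.66e-10). CG34215 rose from 0.745, 1.14 and 1.17 CPM to 26.1, 27.5 and 28.5 CPM (4.67 ± 0.30, edgeR adjusted p = 5.74e-09). For both genes each heterozygous library was many times above every control library, though the rule that named them required groups without overlap.

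Control replicate 2 held most of the control reads of several risen genes. Cyp4p2, a cytochrome P450 gene, had 0, 4.55 and 0.881 CPM in control and 46.4, 48.3 and 49.1 CPM in heterozygous libraries (4.58 ± 0.37, edgeR adjusted p = 1.71e-07), and the value was 6.5 without control replicate 2. yellow-d2 had 0, 3.41 and 0.294 CPM against 30.1, 26.7 and 24.2 CPM, a rise of 4.29 ± 0.44 that was 7.07 without control replicate 2. mthl8, a gene of the methuselah-like receptor family, had 0, 2.84 and 0 CPM against 12.6, 10.1 and 10.7 CPM, a rise of 3.39 ± 0.57 that was 8.21 without that library and 2.78 without control replicate 3. DESeq2 did not call mthl8 (3.53, adjusted p = 0.153). CG31807 had 3 control reads, all in replicate 2, and 82 heterozygous reads, 25.3 times more (interval 8.36 to 125), and its fitted value of 4.51 became 7.71 without that library. CG7567, the angiotensin-converting enzyme relative Ance-2, CG43064, the pigmentation gene y and lncRNA:CR32160 rose by 3.60 ± 0.70, 3.51 ± 0.46, 3.45 ± 0.58, 3.00 ± 0.35 and 2.96 ± 0.35. Without control replicate 2 CG7567 stood at 4.76 and CG43064 at 4.91, without control replicate 3 CG43064 at 2.86, without heterozygous replicate 2 CG7567 at 2.97 and without control replicate 1 Ance-2 at 4.19. CR43669 and lncRNA:CR44315 had 33 and 37 heterozygous reads and 0 control reads, at least 10.2-fold and 11.4-fold higher with the same floor.

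**Figure D2:**
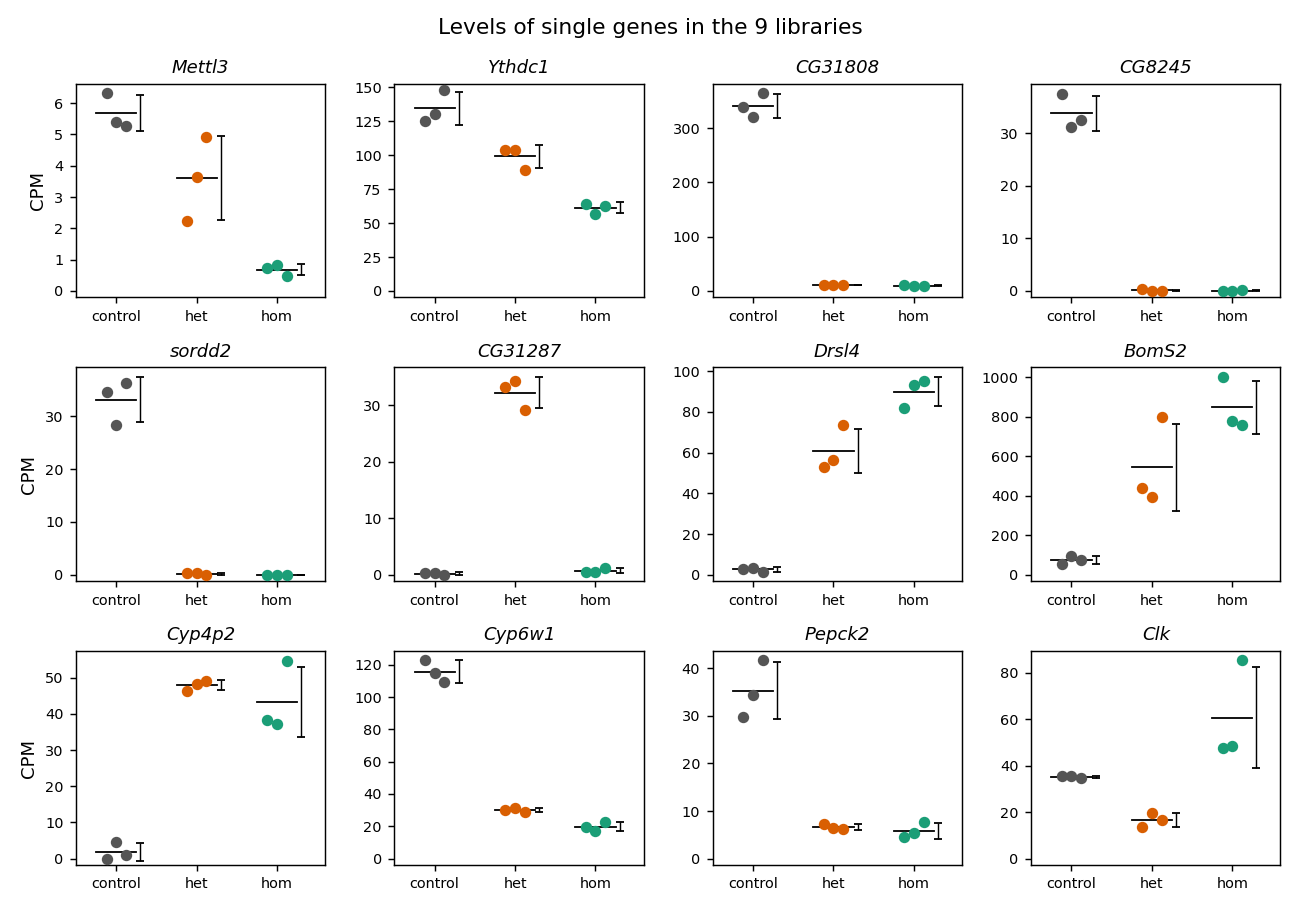
Each panel shows a gene, with its level in CPM on the vertical axis and 3 points per group for the control, heterozygous (het) and homozygous (hom) libraries. The horizontal line is the mean and the bar beside it the SD (n = 3). The heterozygous points of CG31808, CG8245 and sordd2 lie at the bottom of the panel beside the homozygous points, and those of CG31287 are the only high ones in its panel.

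Some strongly changed genes were neighbours, in pairs chosen after their values were seen. CG31807 (2L 16681819-16684008), which rose, and CG31808 (2L 16704286-16716195), which fell, lie near each other on the minus strand, and grp and her beside them were not called (-0.14 ± 0.17 and -0.25 ± 0.19). The P450 genes Cyp4p2, Cyp4p1 and Cyp4p3 are adjacent on 2R, where Cyp4p2 and Cyp4p3 rose by 4.58 ± 0.37 and 1.61 ± 0.32 and Cyp4p1, between them, fell by 1.23 ± 0.14 on the log2 scale. Cyp4p1 had 60.4, 61.1 and 66.6 CPM in control and 24.5, 27.2 and 28.5 CPM in heterozygous libraries. Around Mettl3 itself the share of calls was near that of all genes tested: 8 genes rose and 8 fell of 106 tested within 0.5 Mb on each side (15.1%), and the share was 16.1% within 2 Mb and 15.4% within 5 Mb. The near gene with the lowest p was CG10184, which had 149, 136 and 161 CPM in control and 48.1, 57.6 and 66.2 CPM in heterozygous libraries (-1.38 ± 0.13, edgeR adjusted p = 6.86e-07), and its homozygous levels of 147, 159 and 83.0 CPM overlapped control. By chromosome arm the share called lay between 13.9% on X and 17.2% on 2L and 2R.

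Most genes for cytosolic ribosomal proteins rose. Of 79 genes for proteins of the cytosolic ribosome that were tested, of 88 listed, 67 rose (84.8%, against 8.97% of all genes) and 0 fell. Their median log2 fold change was 0.54 against -0.01 over all genes. sta and RpS13, both of the small subunit, rose from 203, 193 and 211 CPM to 325, 328 and 385 CPM (0.78 ± 0.10) and from 130, 128 and 146 CPM to 215, 225 and 257 CPM (0.79 ± 0.11). RpL23, of the large subunit, rose by 0.73 ± 0.10. For each of these genes the lowest heterozygous library was above the highest control library. Summed over the list, the level was 22128, 18555 and 20137 CPM in control, 28092, 28765 and 31440 CPM in heterozygous and between 25252 and 35662 CPM in homozygous libraries. Proteins of the mitochondrial ribosome had 2 risen of 63 genes (3.17%, below the 8.97% of all genes) and a median of 0.23. DESeq2 called 0 of them, and with library sizes alone 0 rose and 2 fell. The 2 that rose with TMM factors were mRpL20 (1.03 ± 0.32) and mRpL18 (0.95 ± 0.31). Both calls were lost without control replicate 2 (edgeR adjusted p = 0.145 and 0.109) and in most other alternatives.

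Of 65 nuclear genes of the respiratory chain that were tested 25 rose (38.5%) and 1 fell (1.54%), against 8.97% and 6.93% of all genes. The median was 0.29. COX8 rose from 79.4, 65.4 and 66.9 CPM to 94.7, 111 and 142 CPM (0.72 ± 0.14, edgeR adjusted p = 0.00159) and the ATP synthase subunit gene ATPsynD from 165, 136 and 153 CPM to 211, 221 and 232 CPM (0.55 ± 0.11, edgeR adjusted p = 0.00147). COX7C and ATPsynG rose by 0.62 ± 0.12 and 0.61 ± 0.13. The count of risen genes was 12, 15 and 13 without heterozygous replicate 3, heterozygous replicate 2 or control replicate 2, and 5 when all 9 libraries shared 1 estimate of the spread; with library sizes alone 13 rose and 2 fell. Fold changes followed the exon length of genes: with the genes in 5 classes of equal size, the median was 0.14 in the shortest class (198 to 1234 bases; 260 risen and 80 fallen) and -0.10 in the longest (4399 to 71820 bases; 69 risen and 178 fallen). With a correction for exon length, 51 ribosomal genes rose (median 0.41), and 11 respiratory chain genes rose and 2 fell.

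**Figure D3:**
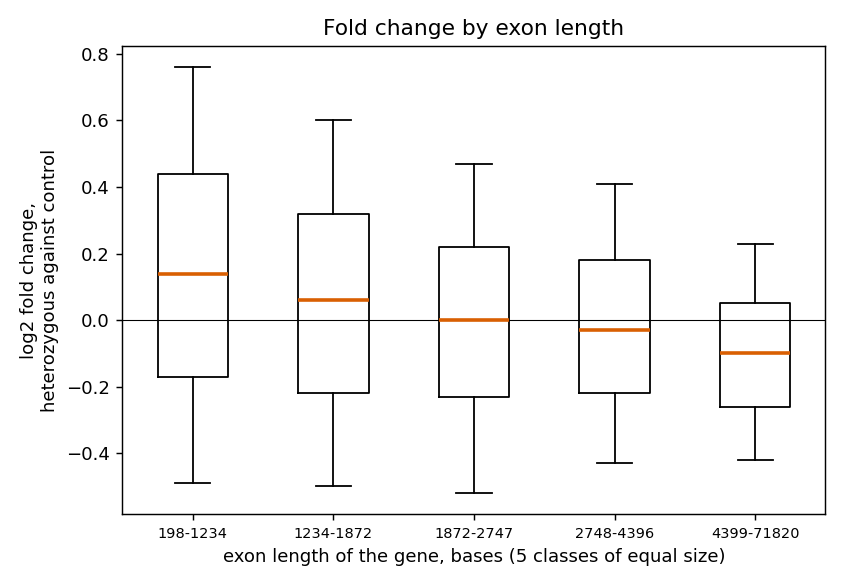
Log2 fold change, heterozygous against control, in 5 classes of the genes tested by exon length in bases. Boxes show the quartiles, orange lines the median and whiskers the 10th and 90th percentiles; the median goes from 0.14 in the shortest class to -0.10 in the longest.

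Most muscle genes tested rose. Of 32 genes of the sarcomere and its regulation 18 rose (56.2%) and 1 fell (3.12%), against 8.97% and 6.93% of all genes. The median was 0.48, and 17 to 23 rose when single libraries were left out. Act79B, an actin of tubular muscles, had 319, 215 and 459 CPM in control and 1005, 1289 and 1153 CPM in heterozygous libraries (1.80 ± 0.19, edgeR adjusted p = 2.69e-06). The myosin light chain gene Mlc1 rose by 1.19 ± 0.10, the troponin C gene TpnC41C by 1.03 ± 0.14 and the tropomyosin gene Tm1 by 0.72 ± 0.10. The myosin heavy chain gene Mhc and the light chain gene Mlc2, named after their values were seen, rose by 0.76 ± 0.11 and 0.81 ± 0.12, while TpnC47D, another troponin C gene, fell by 1.42 ± 0.26 on the log2 scale. The summed level of the list was 43485, 38788 and 41407 CPM in control and 62418, 62651 and 65556 CPM in heterozygous libraries, so the groups were well apart, and the homozygous libraries lay at 38642, 51467 and 41968 CPM. Summed markers of muscle were 19007 to 21804 CPM in control and 30824 to 33772 CPM in heterozygous libraries. Mhc and Mlc2 are among these 5 markers, of which 3 were called higher and 0 lower, so the sum is not a separate measure. The marker TpnC4 had 290, 169 and 104 reads in control and 207, 257 and 304 in heterozygous libraries, which overlapped. The part of muscle content in the other results was not tested.

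Of 56 antimicrobial and humoral immune genes 34 had enough reads to be tested, and of those 18 rose (52.9%, against 8.97% of all genes), 1 fell and the rest did not pass, with a median of 0.79. Bomanins are short peptides induced by the Toll pathway. BomS2 had 53.3, 94.7 and 76.6 CPM in control and 439, 393 and 797 CPM in heterozygous libraries (2.85 ± 0.23, edgeR adjusted p = 1.38e-07), and BomT2 rose from 8.57, 5.69 and 5.28 CPM to 34.0, 31.2 and 38.6 CPM (2.43 ± 0.22). In BomS2 heterozygous replicate 3 was the highest, and all 3 were far above control. Of the Bomanin genes of the cluster on 2R, chosen after their values were seen, BomT1, BomS5, BomS3, BomS1 and BomBc2 also rose, by 1.87 ± 0.54, 1.70 ± 0.25, 1.16 ± 0.14, 1.05 ± 0.24 and 1.03 ± 0.14, while BomBc1 (0.34 ± 0.37), BomS4 (0.26 ± 0.22) and BomS6 (0.59 ± 0.38) did not pass.

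The antibacterial peptide gene Listericin rose from 48.1, 33.3 and 26.4 CPM to 89.7, 108 and 105 CPM (1.51 ± 0.17, edgeR adjusted p = 5.34e-06). The called gene that fell was the drosocin gene Dro, named after its value was seen, from 11.6, 14.8 and 8.51 CPM to 1.69, 3.09 and 0.613 CPM (-2.65 ± 0.41, edgeR adjusted p = 0.000195). The summed level of the list was 1173 to 1459 CPM in control and 2532 to 3562 CPM in heterozygous libraries. In the Toll and Imd signalling genes above these effectors 2 of 24 rose (8.33%) and 1 fell (4.17%), near the 8.97% and 6.93% of all genes, and the median was -0.01. Rel, the NF-kappaB factor of the Imd pathway, rose from 70.1, 102 and 76.0 CPM to 128, 121 and 161 CPM (0.72 ± 0.14, edgeR adjusted p = 0.00173). The calls of the receptor genes Tl (0.44 ± 0.14) and Toll-6 (-0.51 ± 0.17) were lost when any of several libraries was left out, among them heterozygous replicate 1 at edgeR adjusted p = 0.184 and 0.0827. Of 7 genes of the Turandot and JAK-STAT list 1 rose (14.3%, against 8.97% of all genes) and 0 fell. The called gene was the stress-induced TotA, which rose by 1.09 ± 0.25 and was lost with all 9 libraries in the fit (edgeR adjusted p = 0.0555).

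Of 10 haemocyte genes tested 4 rose (40.0%, against 8.97% of all genes) and 0 fell, with a median of 0.43. PPO2, a prophenoloxidase gene of crystal cells, rose by 1.91 ± 0.41, and the collagen IV gene vkg by 0.40 ± 0.10, a gene that fat body also expresses. The clotting factor gene Hml (0.51 ± 0.14) and the phagocytic receptor gene NimC1 (0.63 ± 0.20) were lost without control replicate 2 (edgeR adjusted p = 0.0792 and 0.174) and in other settings, and vkg without heterozygous replicate 1 or 2 (0.0596 and 0.0560). Summed haemocyte markers overlapped between the groups, at 218 to 314 CPM in control and 312 to 364 CPM in heterozygous libraries.

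Fat body and metabolic genes moved mostly upward, with large falls of a few. Of 30 genes of fat body lipid handling and storage 13 rose (43.3%) and 4 fell (13.3%), against 8.97% and 6.93% of all genes. The median was 0.34, and without heterozygous replicate 3 only 8 rose. apolpp, the precursor of the lipoproteins that carry lipid in the blood, rose from 764, 481 and 485 CPM to 1230, 1327 and 1422 CPM (1.20 ± 0.15, edgeR adjusted p = 1.90e-05). Sodh1, a sorbitol dehydrogenase gene, rose by 1.30 ± 0.14 and the malic enzyme gene Men by 0.64 ± 0.11. Those that fell included the larval serum protein genes Lsp2 and Lsp1beta, at -1.89 ± 0.33 and -2.06 ± 0.39. Lsp2 stood at -2.70 without heterozygous replicate 2, and its call was lost with all 9 libraries in the fit (edgeR adjusted p = 0.0508). The others were the lipase gene Hsl at -0.85 ± 0.17 and the acyltransferase gene Dgat2 at -1.68 ± 0.37. Lsp1beta, Hsl and Dgat2 were named after their values were seen. Summed fat body markers were 595 to 874 CPM in control and 1362 to 1562 CPM in heterozygous libraries, and their part in these results was not tested. Most of that sum is apolpp itself, and the marker Lsd-1, at 44.3 to 66.6 CPM in control and 53.6 to 69.6 CPM in heterozygous libraries, was not called (0.07 ± 0.15).

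Of 30 genes of sugar and glycogen metabolism 11 rose (36.7%) and 2 fell (6.67%), against 8.97% and 6.93% of all genes. The median was 0.25, and 7 rose without heterozygous replicate 3. The steepest change was a fall of Pepck2, a phosphoenolpyruvate carboxykinase gene, which had 29.8, 34.4 and 41.7 CPM in control and 7.31, 6.46 and 6.13 CPM in heterozygous libraries (-2.41 ± 0.21, edgeR adjusted p = 4.20e-07). Its homozygous levels were 4.55, 5.31 and 7.78 CPM. The malate dehydrogenase gene Mdh1 rose by 0.95 ± 0.11, the trehalose synthesis gene Tps1 by 0.69 ± 0.10 and the hexokinase gene Hex-C by 0.71 ± 0.14. Tps1 had 225, 244 and 210 CPM in control and 362, 347 and 387 CPM in heterozygous libraries, with homozygous levels of 231 to 270 CPM.

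Yolk and sex-biased fat body genes had 4 risen (57.1%) and 1 fallen (14.3%) of 7, against 8.97% and 6.93% of all genes. The list was not divided by the sex in which its genes are higher, so the count gives no direction of sex. The fallen gene was Lsp2, which is also in the fat body list. Yp3 rose from 1199, 741 and 744 CPM to 1554, 1634 and 2410 CPM (1.06 ± 0.18; edgeR adjusted p = 0.0572 with all 9 libraries in the fit), Yp2 by 0.92 ± 0.17 and to by 1.39 ± 0.26, while Yp1 stood at 0.49 ± 0.17 (edgeR adjusted p = 0.0679). At the level of whole genes, with splicing not analysed here, 1 of 15 sex determination and dosage compensation genes fell (6.67%, near the 6.93% of all genes). That gene was msl-2, which builds the male dosage compensation complex and is repressed in females, at 49.2, 51.2 and 49.9 CPM in control and 36.3, 40.4 and 31.6 CPM in heterozygous libraries (-0.47 ± 0.14, edgeR adjusted p = 0.0252). The groups did not overlap, but the call was lost without heterozygous replicate 1 or 3 or control replicate 2 (edgeR adjusted p = 0.0769, 0.127 and 0.0794). Its partners msl-1, msl-3 and mle stood at -0.48 ± 0.17, -0.70 ± 0.26 and -0.29 ± 0.13 and did not pass. In other settings msl-1 was called with library sizes alone or at least 10 CPM in 3 libraries (edgeR adjusted p = 0.0337 and 0.0484). mle was called with library sizes alone or without control replicate 3 (edgeR adjusted p = 0.0355 and 0.0299).

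**Figure D4:**
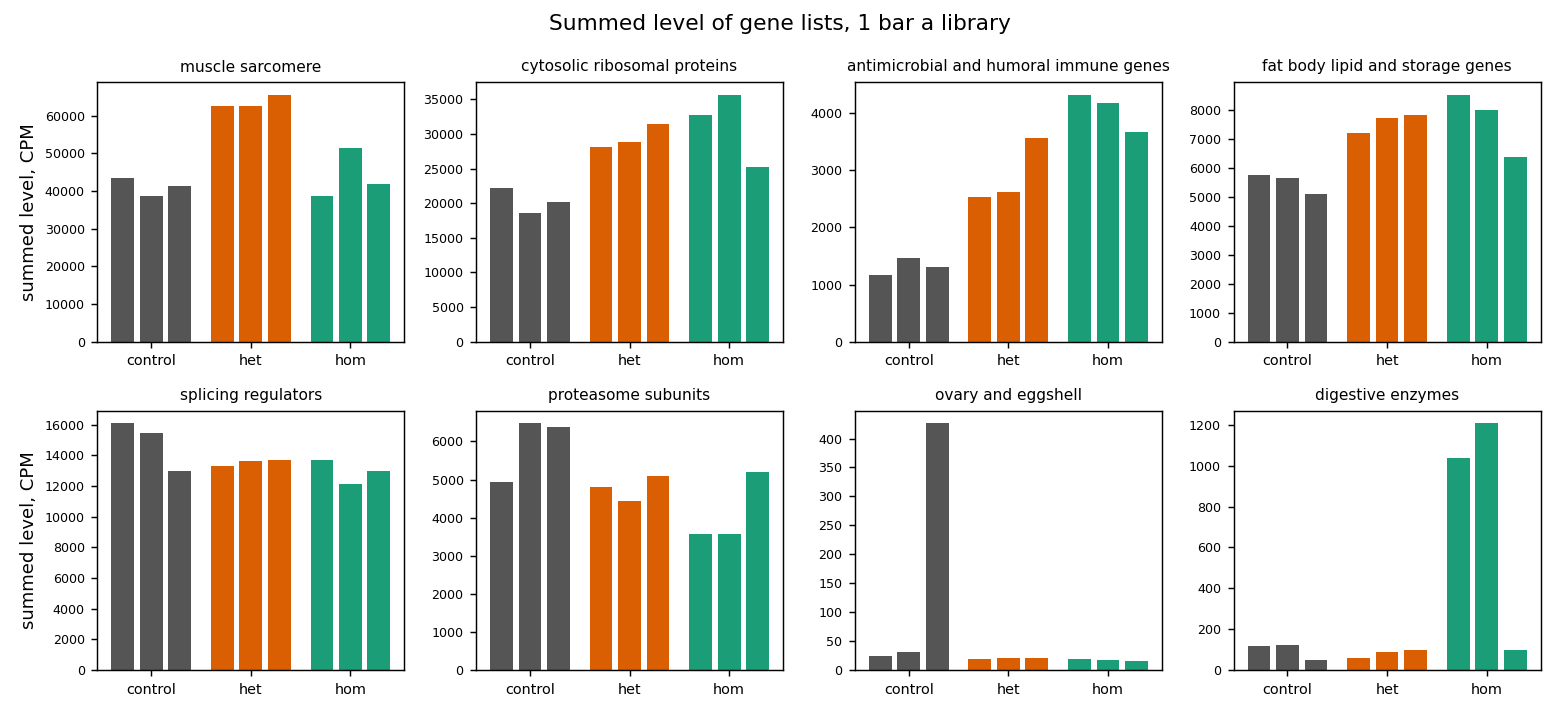
Summed level in CPM of 8 gene lists, with 1 bar for each control, heterozygous (het) and homozygous (hom) library. Muscle, ribosomal, immune and fat body bars are higher in every heterozygous than in every control library, and control replicate 3 stands apart in ovary genes, at 427 CPM against 15.6 to 30.1 CPM in the other 8 libraries.

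Few neuronal signalling genes were called. Of 28 synaptic vesicle and active zone genes 3 fell and 0 rose (median -0.04), of 22 voltage-gated channel genes 3 fell and 0 rose (median -0.17), and of 40 transmitter receptor genes 4 fell and 1 rose (median -0.14). The shares that fell, at most 13.6%, rest on 3 or 4 genes a list and stand against 6.93% of all genes. After correction for exon length the medians of these lists were 0.02, -0.08 and -0.06, and 3, 2 and 3 genes fell. Syt1, the calcium sensor of vesicle release, had 2325, 2380 and 2040 CPM in control and 1451, 1427 and 1348 CPM in heterozygous libraries (-0.67 ± 0.11, edgeR adjusted p = 0.000216). The RIM-binding protein gene Rbp and the synapsin gene Syn fell, at -0.53 ± 0.10 and -0.47 ± 0.10. The calcium channel gene Ca-alpha1D fell from 413, 400 and 351 CPM to 266, 279 and 246 CPM (-0.56 ± 0.10, edgeR adjusted p = 0.00118). Teh2, an accessory subunit of the sodium channel whose exons overlap those of Teh3, fell by 0.50 ± 0.11. Ca-alpha1T, at -0.34 ± 0.10, was lost without heterozygous replicate 1 or 3 or control replicate 1 or 2 (edgeR adjusted p = 0.0624 to 0.155) and stood at -0.19 after correction for exon length. Summed neuronal markers were 5019 to 5688 CPM in control and 4122 to 4389 CPM in heterozygous libraries, and their part in these falls was not tested. That sum is over 4 genes, of which Syt1 and elav fell. The other two, nSyb at 1629 to 1695 against 1517 to 1626 CPM (-0.07 ± 0.10) and brp at 946 to 1138 against 990 to 1094 CPM (-0.05 ± 0.11), were not called.

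Among receptors, Octbeta1R for octopamine, nAChRbeta2 for acetylcholine and Dop1R1 for dopamine fell, at -0.56 ± 0.12, -0.61 ± 0.13 and -0.60 ± 0.14. nAChRbeta2 had 73.8, 64.6 and 62.5 CPM in control and 39.9, 46.0 and 45.1 CPM in heterozygous libraries. DopEcR, at 0.32 ± 0.10, was lost when any single heterozygous library or control replicate 1 or 3 was left out (edgeR adjusted p = 0.0754 to 0.130). The list of neuropeptide genes split evenly, with 4 risen and 4 fallen of 33 (12.1% each, against 8.97% and 6.93% of all genes). Among the risen of this list was AkhR, a receptor gene and not a peptide gene. Pdf, the peptide of the clock neurons, rose from 11.6, 12.5 and 12.6 CPM to 20.8, 29.2 and 31.9 CPM (1.15 ± 0.21, edgeR adjusted p = 0.000778). AkhR, the receptor of the adipokinetic hormone, rose by 1.10 ± 0.18 and Nplp3 by 0.60 ± 0.13, and the ion transport peptide gene ITP fell by 0.48 ± 0.11. Without heterozygous replicate 1 or 3 or control replicate 2 the count of those that fell was 1. Neuronal counts also depended on the scaling: with library sizes alone 5 channel, 8 receptor and 7 neuropeptide genes fell, and without control replicate 3 the channel count was 6. After correction for exon length 3 genes of the neuropeptide list rose and 8 fell.

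Genes of neurogenesis, which the series title names, were called lower in 3 cases and higher in 1 of 20, where 6.93% of all genes fell and 8.97% rose. Their median was -0.13, and after correction for exon length it was -0.03, with 2 fallen and 1 risen. elav, the pan-neuronal RNA-binding protein gene, had 577, 419 and 407 CPM in control and 298, 310 and 280 CPM in heterozygous libraries (-0.66 ± 0.12, edgeR adjusted p = 0.00128). sca, a secreted protein gene of the proneural field, fell by 1.00 ± 0.21. The neural transcription factor gene pros stood at -0.43 ± 0.13 and -0.28 without control replicate 1, where the call was lost (edgeR adjusted p = 0.115), and Su(H), the Notch pathway's transcription factor, at 0.59 ± 0.19 and 0.41 without heterozygous replicate 1 (edgeR adjusted p = 0.248). Both were lost also without several other libraries, while 5 genes fell without control replicate 3 or with library sizes alone. Of 17 mushroom body and learning genes mub alone fell (5.88% of the list, against 6.93% of all genes), at -0.39 ± 0.10. Its call was lost without heterozygous replicate 2 or 3 (edgeR adjusted p = 0.0664 and 0.0738). Of the list 6 fell without control replicate 3, and 0 after correction for exon length, where the median went from -0.19 to -0.09.

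Splicing regulators had 5 fallen (16.1%, against 6.93% of all genes) and 0 risen of 31, with a median of -0.17. With library sizes alone 9 fell. The 5 that fell with TMM factors include elav and mub. heph, the polypyrimidine tract-binding protein gene, had 310, 298 and 278 CPM in control and 216, 214 and 216 CPM in heterozygous libraries (-0.46 ± 0.10, edgeR adjusted p = 0.00337). bru3, a Bruno family gene, fell by 0.45 ± 0.12, lost without heterozygous replicate 1 or 3 or control replicate 1 or 2 (edgeR adjusted p = 0.0534 to 0.0672). The count was 2 to 3 when any single heterozygous library or control replicate 2 was left out.

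Proteasome genes had 6 fallen (19.4%, against 6.93% of all genes) and 0 risen of 31, with a median of -0.23. Rpn1, of the regulatory particle, had 687, 962 and 888 CPM in control and 592, 579 and 579 CPM in heterozygous libraries (-0.54 ± 0.12, edgeR adjusted p = 0.00410). Rpn3, Rpn6, Rpn2 and Rpt2, of the same particle, stood at -0.59 ± 0.14, -0.42 ± 0.12, -0.45 ± 0.13 and -0.35 ± 0.11, each lost without heterozygous replicate 2 (edgeR adjusted p = 0.0551 to 0.142). Control replicate 1 lay close to the heterozygous libraries, and the count rested on single libraries: it was 13 without control replicate 1 and 1 to 3 when any other single library was left out. Insulin and TOR signalling genes had 3 fallen of 21 (14.3%, against 6.93% of all genes). These were REPTOR at -0.48 ± 0.12, Pdk1 at -0.44 ± 0.11 and ImpL2 at -0.43 ± 0.14. Of the 3, 1 was left without heterozygous replicate 1 or 3.

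Genes of vision and of the clock changed in both directions. Of 38 phototransduction genes 7 rose (18.4%) and 3 fell (7.89%), against 8.97% and 6.93% of all genes. The median was 0.02, and with library sizes alone 6 rose and 7 fell. Rh5, the blue-sensitive opsin gene of R8 photoreceptors, had 32.0, 38.4 and 37.3 CPM in control and 103, 83.9 and 118 CPM in heterozygous libraries (1.49 ± 0.14, edgeR adjusted p = 1.00e-06). Calmodulin, Cam, rose by 0.86 ± 0.12 and santa-maria, a scavenger receptor gene of carotenoid uptake, by 0.70 ± 0.12. norpA, the phospholipase C of phototransduction, fell from 3490, 3166 and 2668 CPM to 1741, 1935 and 1902 CPM (-0.74 ± 0.12, edgeR adjusted p = 0.000216). Summed photoreceptor markers, norpA among them, were 20727 to 22104 CPM in control and 19274 to 20792 CPM in heterozygous libraries, and overlapped. Most of that sum is ninaE. Of the 5 markers 2 were called higher and norpA lower, so the sum joins members that changed in opposite directions.

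The enzyme genes e and t, which recycle the photoreceptor transmitter histamine, both fell. e (ebony), which conjugates histamine in glia, had 219, 244 and 312 CPM in control and 139, 141 and 139 CPM in heterozygous libraries (-0.89 ± 0.12, edgeR adjusted p = 5.34e-05), a call lost with all 9 libraries in the fit (edgeR adjusted p = 0.0763). t (tan), which frees it again in photoreceptors, had 263, 226 and 261 CPM in control and 138, 155 and 167 CPM in heterozygous libraries (-0.70 ± 0.11, edgeR adjusted p = 0.000196). These were the 2 that fell of 20 genes in the glial list, in which 3 rose (1 without heterozygous replicate 1). Of all genes 8.97% rose and 6.93% fell. Among the risen glial genes were the trehalose transporter gene Tret1-1, by 0.49 ± 0.11, and the citrate transporter gene Indy, by 0.57 ± 0.14. The call of Indy was lost without heterozygous replicate 1 (edgeR adjusted p = 0.0560). Of 20 eye pigment genes 3 rose and 1 fell, where 8.97% of all genes rose and 6.93% fell. Those that rose were v by 1.17 ± 0.23, Rab32 by 0.51 ± 0.10 and Hn by 0.40 ± 0.11. The fallen gene was st, an ABC transporter gene, by 0.98 ± 0.21. Hn was lost without heterozygous replicate 2 or control replicate 2 (edgeR adjusted p = 0.0733 and 0.0962).

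Among 26 clock genes 6 rose (23.1%) and 3 fell (11.5%), against 8.97% and 6.93% of all genes, with a median of 0.05. Clk, the activator of the clock, had 35.4, 35.6 and 34.6 CPM in control and 13.8, 19.7 and 16.6 CPM in heterozygous libraries (-1.08 ± 0.17, edgeR adjusted p = 0.000286). Its homozygous levels of 47.7, 48.3 and 85.6 CPM lay above those of both other groups. tim, a repressor of the clock, rose from 123, 142 and 118 CPM to 220, 223 and 200 CPM (0.75 ± 0.11, edgeR adjusted p = 9.50e-05), and vri, which represses Clk transcription, from 53.3, 74.8 and 59.6 CPM to 114, 96.6 and 125 CPM (0.83 ± 0.14). The transcripts of these genes cycle over the day, and the hour at which heads were collected is not given in the labels. Without heterozygous replicate 2 or 3, Clk was the gene left of the 3 that fell.

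Of 20 heat shock and chaperone genes 9 rose and 1 fell, where 8.97% of all genes rose and 6.93% fell. The median of the list was 0.46. Hsp70Aa had 1.12, 5.12 and 7.63 CPM in control and 11.8, 24.1 and 28.5 CPM in heterozygous libraries. The rises of Hsp70Aa and Hsp70Bc, of 2.14 ± 0.39 and 2.23 ± 0.39, are uncertain, because both belong to a family of near-identical copies that share reads. Hsc70-1 rose from 22.7, 18.2 and 17.9 CPM to 44.7, 46.0 and 51.5 CPM (1.28 ± 0.16, edgeR adjusted p = 1.90e-05) and l(2)efl, a small heat shock protein relative, by 0.76 ± 0.13. Hsp68, which lies within 0.5 Mb of Mettl3, had 20.1, 72.2 and 87.5 CPM in control and 115, 155 and 200 CPM in heterozygous libraries (1.36 ± 0.29, edgeR adjusted p = 0.00323), and DESeq2 did not call it (adjusted p = 0.135). Control replicate 1 was the lowest library for Hsp70Aa, Hsp70Bc and Hsp68. With all 9 libraries in the fit 4 of the 20 rose, and the calls of Hsp70Aa, Hsp70Bc and l(2)efl were lost (edgeR adjusted p = 0.0929, 0.0602 and 0.0693).

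Detoxification genes changed both ways. Of 64 cytochrome P450 genes tested 13 rose (20.3%, against 8.97% of all genes) and 11 fell (17.2%, against 6.93%), with a median of 0.10, and with library sizes alone 11 rose and 12 fell. Cyp6w1 had 123, 115 and 109 CPM in control and 29.8, 31.4 and 28.8 CPM in heterozygous libraries (-1.94 ± 0.12, edgeR adjusted p = 4.80e-09), and Cyp6a20 had 46.2, 42.4 and 31.1 CPM against 152, 134 and 164 CPM (1.92 ± 0.14, edgeR adjusted p = 3.95e-08). The spread within each group was small beside both differences. Ugt37A3, a UDP-glycosyltransferase gene, fell from 29.8, 24.7 and 28.5 CPM to 3.09, 4.21 and 7.05 CPM (-2.53 ± 0.26). Of 17 genes of its family 2 rose (11.8%) and 2 fell (11.8%), against 8.97% and 6.93% of all genes. Of the others of that family, Ugt35C1 and Ugt35E2 rose by 1.81 ± 0.27 and 1.33 ± 0.31 and Ugt49C1 fell by 1.13 ± 0.20. Of 26 glutathione S-transferase genes 3 rose (11.5%, near the 8.97% of all genes) and 0 fell. The 3 were GstE14 and GstO2, by 0.62, and Mgstl, by 0.48, and 0 rose without control replicate 2.

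Secreted and cuticle genes of young heads also differed. Of 54 odorant-binding protein genes 30 were tested, with a median of 0.35. Of these 12 rose (40.0%) and 2 fell (6.67%), against 8.97% and 6.93% of all genes. Obp56d had 77.5, 105 and 104 CPM in control and 341, 301 and 468 CPM in heterozygous libraries (1.95 ± 0.15, edgeR adjusted p = 1.20e-07), and Obp56g, Obp99c and Obp83a rose by 1.83 ± 0.20, 1.06 ± 0.12 and 0.78 ± 0.10. Of 187 odorant, gustatory and ionotropic receptor genes only 12 were tested, and 2 fell (16.7%, against 6.93% of all genes) and 0 rose. Those that fell were Ir76a and Ir68a, the latter at -1.11 ± 0.36 and lost without control replicate 1 (edgeR adjusted p = 0.0891) and in other settings. Of 130 cuticular protein genes 35 were tested, with 11 risen (31.4%) and 7 fallen (20.0%), against 8.97% and 6.93% of all genes. Without heterozygous replicate 3 the fallen numbered 4. Acp1 rose from 236, 206 and 198 CPM to 424, 417 and 427 CPM (0.99 ± 0.10, edgeR adjusted p = 2.86e-06), while TwdlT fell from 17.9, 23.9 and 26.1 CPM to 3.93, 6.74 and 6.44 CPM (-1.99 ± 0.25, edgeR adjusted p = 2.65e-05). Of 9 tested genes of the yellow family 3 rose (33.3%) and 1 fell (11.1%), against 8.97% and 6.93% of all genes. Those that rose were yellow-d2, y and yellow-e. The gene yellow-c fell by 0.52 ± 0.15, at -0.32 and not called without control replicate 3 (edgeR adjusted p = 0.117). yellow-e, at 0.46 ± 0.14, was lost when any single heterozygous library or control replicate 1 was left out (edgeR adjusted p = 0.0624 to 0.153).

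**Figure D5:**
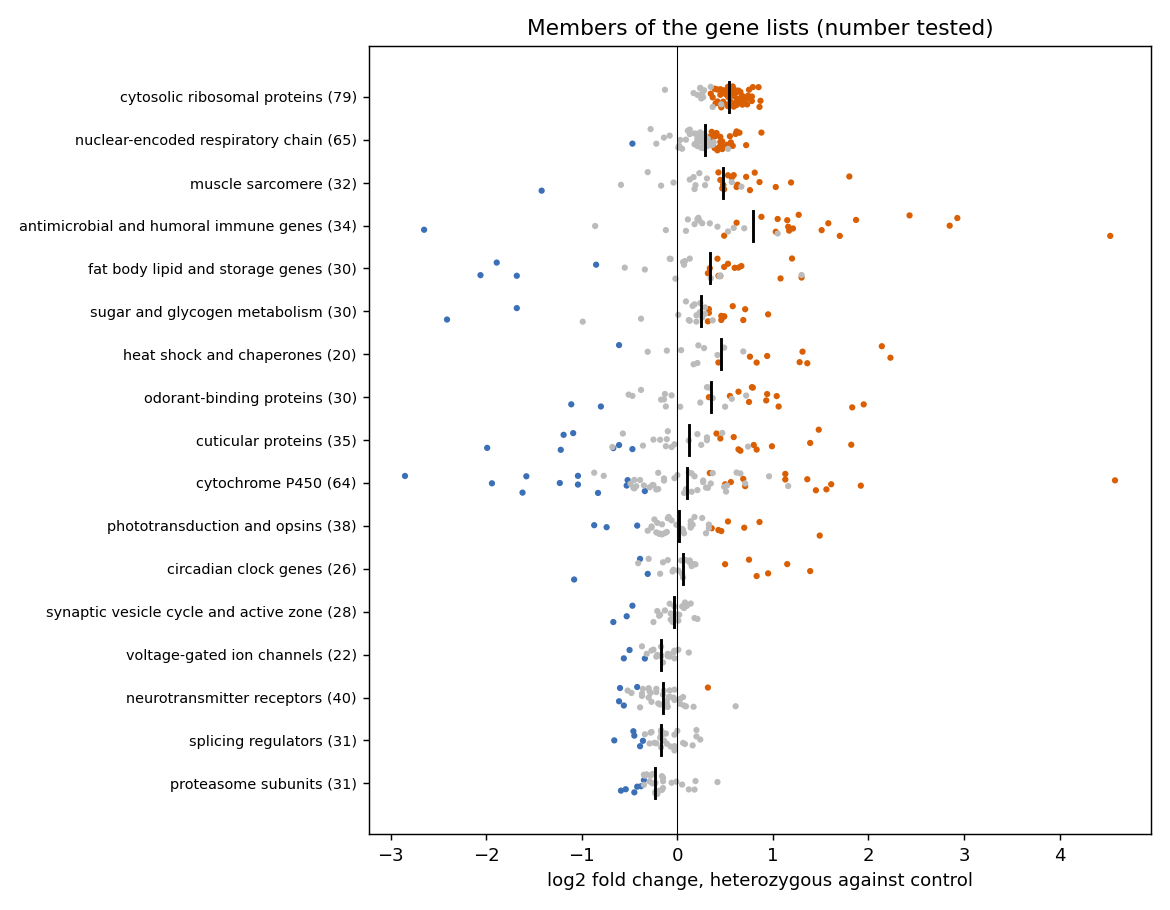
Each point is a tested gene of a list, with its log2 fold change, heterozygous against control, on the horizontal axis; orange points were called higher, blue points called lower and grey points not called. Black bars are the medians of the lists drawn, such as 0.79 for immune genes and 0.54 for ribosomal proteins and -0.23 for proteasome subunits, and the number tested is given after each name.

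Of 50 digestive enzyme genes 6 were tested, and 1 was called lower (16.7%, against 6.93% of all genes) and 0 higher. That gene, Mal-A1, was lower (-2.26 ± 0.66) although its libraries overlapped. It was not called by DESeq2 (adjusted p = 0.154) or without heterozygous replicate 1 or 2 (edgeR adjusted p = 0.0869 and 0.114). The summed level of the digestive enzyme genes was 47.2 to 120 CPM in control and 56.4 to 97.8 CPM in heterozygous libraries. Some well measured genes outside all lists, chosen after their values were seen, changed as clearly. Asph, which encodes an aspartyl beta-hydroxylase, had 3200, 4134 and 3820 CPM in control and 1094, 1455 and 1412 CPM in heterozygous libraries (-1.49 ± 0.13, edgeR adjusted p = 4.20e-07). CG42260 had 167, 151 and 137 CPM against 21.6, 26.1 and 16.2 CPM (-2.82 ± 0.15, edgeR adjusted p = 8.66e-10). CG4000 had 671, 633 and 781 CPM against 1681, 2204 and 1716 CPM (1.43 ± 0.12, edgeR adjusted p = 4.20e-07). In none of the 3 did the groups overlap. Calls were more frequent among well measured genes, with 8.47% called in the lowest of 5 classes by mean level and 26.6% in the highest, so a gene with few reads that was not called may still differ.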

How the data were processed

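RNA-seq was done on heads in 9 libraries, of which the 3 heterozygous and 3 control libraries entered the fit. Trizol extraction, oligo-dT selection and a directional library kit were used, per the labels' protocols. The tools were, per the submitters' processing notes, CASAVA 1.8.4, STAR 2.4.0h, HTSeq 0.6.1 and DESeq2 1.6.3, and the genome build BDGP6. The strand setting is not given in the sources used here. The authors deposited raw read counts for 17558 gene IDs per library, and 17252 IDs matched an Ensembl annotation (release 115) of that assembly, from which symbols, coordinates and exon overlaps came. Exons of CG31808, Ir76a, Cyp6d2, RpL23, COX7C, Rbp, Syn, Ca-alpha1D, ITP, elav, sca, pros, Cam, santa-maria, tim, apolpp, Tps1, Lsp2, l(2)efl, Obp99c, Tm1, msl-2, Hsp68, CG42260, CG31287, CG4000, Jhbp5, BomBc2, BomS4, Teh2, Teh3, GstO2, yellow-c, Mal-A1, Mgstl, Rpt2, mRpL18, ImpL2, per, Yp1, msl-3, vir, nito, mtSSB, Sxl, her, grp and Mettl14 overlap those of other genes, which may share their reads. The 5 closing lines of each file, among them reads outside genes and without a unique position (10.5 to 16% in these libraries), were left out.

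Low genes were removed by filterByExpr at a minimum count of 10 and total of 15, and libraries were scaled with TMM factors (0.9562 to 1.075) and genes tested with the quasi-likelihood test of edgeR 4.0.16 (R 4.3.3) with Benjamini-Hochberg adjustment over all genes tested and a threshold of 0.05. CPM is on these scaled sizes; homozygous levels were scaled with all 9 libraries and were not tested. Separate cultures or collections within a group are not mentioned in the labels, so the spread behind the p-values may be technical. Counting intervals (95%) and floors (3 reads over a group) cover counting error only. Depth sets the precision of low genes.

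Named genes were Mettl3 and the m6A list, the 12 highest and 12 lowest called genes with at least 2 CPM and no overlap, up to 4 members of each list by lowest p, genes at 0 in one group, and called genes within 0.5 Mb of Mettl3; the text names part of them. The members, the 37 lists and this rule were chosen with earlier results of these data known, so a list's direction is not independent evidence. Testis and accessory gland genes had 0 tested members. Some genes are not reported here. Alternatives were other size factors, filters and thresholds, DESeq2 1.42.0, limma-voom (limma 3.58.1), all 9 libraries, the replicate number as a block, each library left out and, chosen after seeing the data, a correction for exon length. The scripts were tested on simulated data.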

Additional observations from a re-analysis of the deposited data

How the results depend on the processing

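The count of 1370 called genes stood between 1103 and 1629 with DESeq2, limma-voom, other size factors, other filters, the exon length correction or the replicate block. With all 9 libraries it was 836 (498 higher and 338 lower), of which 819 were called the same way in the fit on 6. An adjusted p of 0.01 left 769 (470 and 299), and a fold change of at least 2 left 344 (198 and 146). Leaving out single libraries gave 928 to 1344 calls, 534 to 754 higher and 381 to 606 lower; 381 and 394 fell without heterozygous replicates 1 and 3. The replicate block gave 1346 calls and -0.66 for Mettl3 (edgeR adjusted p = 0.298); the numbers did not pair the libraries, with correlations of deviations of -0.0378, 0.0434 and 0.00733 for the same number and -0.111 to 0.106 for others. Mettl3 was not called in any alternative. With all 9 libraries the risen numbered 2 for yolk and 6 for sugar genes, and the fallen 7 for P450, 3 for splicing and 1 each for proteasome, phototransduction, clock and insulin genes. Mettl3 had no value with at least 10 CPM in 3 libraries, a filter it did not pass. Of 146 named genes called, 96 kept the call in every alternative run for them. Sign changes occurred among genes not called: Mettl14 at 0.01 without heterozygous replicate 1 and 0.05 without control replicate 3 (range over single libraries left out -0.26 to 0.05), Hakai at -0.29 without heterozygous replicate 1 (-0.29 to 0.47), Jon65Aiii at 0.12 with limma-voom, and Amy-d at -0.10 without heterozygous replicate 3 and -0.05 without control replicate 3 (-0.10 to 0.58). The cause was not tested. Depth limits low genes: Mettl3 rested on 8 to 19 reads per library.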
